A study of Mus musculus with 8 samples.

Results

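Hox genes encode homeodomain transcription factors that give cells along the body axis their regional identity. The mouse has 39 of them in 4 clusters, Hoxa on chromosome 6, Hoxb on chromosome 11, Hoxc on chromosome 15 and Hoxd on chromosome 2. All 39 symbols were present among the 25526 symbols of the deposited tables, and all were taken, with no choice by level or change. Their RNA was measured by bulk RNA sequencing of the aorta of male Marfan mice. The mice carried the missense allele Fbn1 C1041G on 1 chromosome (Fbn1C1041G/+), in the gene of fibrillin-1, a germline model of Marfan syndrome. There were 4 libraries from mice aged 2 years, when aneurysm growth had arrested by the study's account, and 4 libraries from mice aged 12 weeks, when aneurysms were growing. Both groups carried the same allele, so age was the only labelled difference, and no library without the allele was analysed here. The labels name the tissue as aorta and do not name the segment taken.

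Within a cluster the genes are numbered 1 to 13 from one end to the other, and genes with the same number in different clusters are paralogs. In the embryo, low-numbered genes are active early and towards the head, and high-numbered genes later and towards the tail. Adult smooth muscle cells and fibroblasts keep much of this code. The wall of the aortic arch and its branches descends in part from cranial neural crest, whose hindbrain segments express low-numbered genes, whereas the descending aorta arises from trunk mesoderm, where higher-numbered genes are active. Hox proteins bind DNA together with the TALE homeodomain proteins of the Pbx, Meis and Pknox families. Polycomb proteins hold Hox genes silent, trithorax proteins keep them active, and retinoic acid induces low-numbered members.

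Promoter windows are shown for the genes with the clearest changes in each direction, Hoxa2 and Hoxa3 (lower at 2 years) and Hoxa7 and Hoxd8 (higher at 2 years). Each is the 250 bases before the start of the gene in RefSeq on GRCm38.p6, written 5′ to 3′ on the gene's strand, with any matches to 6 motifs in capitals.
Hoxa2 (chr6:52164832-52165081, minus strand): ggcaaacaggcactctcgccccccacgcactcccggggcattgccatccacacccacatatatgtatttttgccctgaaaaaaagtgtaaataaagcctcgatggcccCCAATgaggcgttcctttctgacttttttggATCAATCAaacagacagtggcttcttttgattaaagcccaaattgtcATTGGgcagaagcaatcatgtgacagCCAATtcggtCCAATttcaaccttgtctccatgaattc
Hoxa3 (chr6:52213068-52213317, minus strand): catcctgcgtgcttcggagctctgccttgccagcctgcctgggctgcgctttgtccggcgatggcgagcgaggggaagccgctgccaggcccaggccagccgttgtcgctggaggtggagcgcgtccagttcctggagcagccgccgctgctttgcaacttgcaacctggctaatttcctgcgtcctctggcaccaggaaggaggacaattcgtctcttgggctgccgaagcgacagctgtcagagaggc
Hoxa7 (chr6:52218574-52218823, minus strand): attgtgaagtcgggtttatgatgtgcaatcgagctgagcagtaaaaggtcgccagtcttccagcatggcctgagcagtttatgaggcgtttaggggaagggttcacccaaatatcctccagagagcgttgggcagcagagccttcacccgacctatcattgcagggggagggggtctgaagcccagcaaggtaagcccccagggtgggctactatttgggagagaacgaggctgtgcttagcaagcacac
Hoxd8 (chr2:74704365-74704614, plus strand): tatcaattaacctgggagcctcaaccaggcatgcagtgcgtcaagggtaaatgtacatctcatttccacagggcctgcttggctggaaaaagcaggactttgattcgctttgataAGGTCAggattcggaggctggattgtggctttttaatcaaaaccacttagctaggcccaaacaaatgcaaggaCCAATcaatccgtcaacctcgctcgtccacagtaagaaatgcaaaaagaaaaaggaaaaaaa
The motifs searched on both strands were the TATA box (TATAAA), the CCAAT box (CCAAT), the Sp1 box (GGGCGG), the Pbx-Hox site (TGATNNAT), the homeodomain core (TAATTA) and the nuclear receptor half-site (AGGTCA). No 2 matches overlapped in the windows shown. Hoxa2 held 4 CCAAT boxes, present in 33.8% of all 32807 promoter windows, and 1 Pbx-Hox site, present in 7.69%. Hoxd8 held 1 CCAAT box and 1 nuclear receptor half-site, present in 14% of windows. None of the 6 motifs was in the windows of Hoxa3 or Hoxa7. The TATA box, the Sp1 box and the homeodomain core, present in 12.4%, 32.7% and 4.85% of windows, were in none of the 4. Hoxa3 held 18 CG dinucleotides, Hoxa7 held 7, and Hoxa2 and Hoxd8 held 6 each, against a median of 6 over all windows. Which start sites the aorta used was not measured.

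The homeobox, the coding stretch for the DNA-binding domain, is so alike between Hox genes that short reads from it could match more than 1 gene. In coding transcripts of GENCODE M21 on GRCm38, the longest run that Hoxb4 shares letter for letter with another Hox gene is 52 nt, and those of Hoxa7 and Hoxb3 are 47 nt each. The annotated span of Hoxa3 also contains Hoxa4, Hoxa5 and Hoxa6, that of Hoxb3 contains Hoxb4, that of Hoxd3 contains Hoxd4, and Hoxd10 and Hoxd11 overlap. No source used here gives the read length, the strand handling or the rule for shared reads, so the split of counts within these pairs is uncertain.

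Libraries held 16251986 to 33880690 counts at 2 years and 23622803 to 27417541 at 12 weeks. Levels are counts scaled to a library of 1000000 (CPM) after TMM scaling, and a gene was called at an edgeR adjusted p below 0.05 over the 13978 genes tested. Long transcripts had relatively lower levels at 2 years: the slope of a library's log2 CPM on log2 transcript length, after subtracting the mean of each gene, ran from -0.313 to -0.108 in 2-year libraries and from 0.126 to 0.261 in 12-week libraries. Values with an offset for length and GC are therefore given where they change the call of a named gene or a count of called genes. Smooth muscle markers were abundant in every library, with summed levels of 16473 to 24924 CPM at 2 years and 28247 to 33886 CPM at 12 weeks. In 2-year replicate 3, mitochondrial genes took 10.3% of counts, against 4.14 to 5.94% in the other 2-year libraries. That library also had the highest summed mesothelium markers at 2 years (376.9 CPM, others 95.1 to 132.6), fibroblast markers (4038 CPM, others 2049 to 2435) and white fat markers (754.9 CPM, others 234.0 to 469.9). In 12-week replicate 3, heart muscle markers summed to 1206 CPM (others 229 to 297) and white fat markers to 498.8 CPM (others 93.6 to 188.4). Fbn1 itself averaged 484 ± 104 CPM at 2 years and 822 ± 71.5 CPM at 12 weeks (SD, n = 4 each), with a log2 fold change of -0.77 (edgeR adjusted p = 0.00309) that was 0.15 and not called with the length and GC offset.

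Among the Hox genes that passed the expression filter, the change between the ages differed by paralog number. The high-numbered side of this rests on Hoxa7, Hoxd8 and Hoxd9, where the filter favoured genes high at 2 years. High-numbered genes with similar counts at both ages, such as Hoxa9, Hoxa10 and Hoxb8, did not pass it. Of the 39 genes, 13 passed the expression filter and were tested: 4 were higher at 2 years (Hoxa5, Hoxa7, Hoxd8 and Hoxd9), 7 were lower (among them Hoxa2, Hoxa3, Hoxa4, Hoxb2, Hoxb3 and Hoxd4) and 2 were not called (Hoxb4 and Hoxb5). Over all genes tested, 25.8% were called higher, 26.2% lower and 52.0% in either direction. In all 11 called genes the lowest library of one age lay beyond the highest of the other, as in 49.6% of genes tested (24.3% with 2 years above and 25.3% with 2 years below). The median log2 fold change was -0.51 over the 13 Hox genes and -0.01 over all genes tested. Because this is whole tissue, fewer cells of a type and less RNA per cell cannot be told apart. Of the called genes, Hoxa2, Hoxa3, Hoxa4, Hoxa7, Hoxb2, Hoxb3, Hoxd8 and Hoxd9 kept their call under all 16 alternatives, whereas Hoxd4 kept it under 5 and Hoxa5 under 3.

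**Figure D1:**
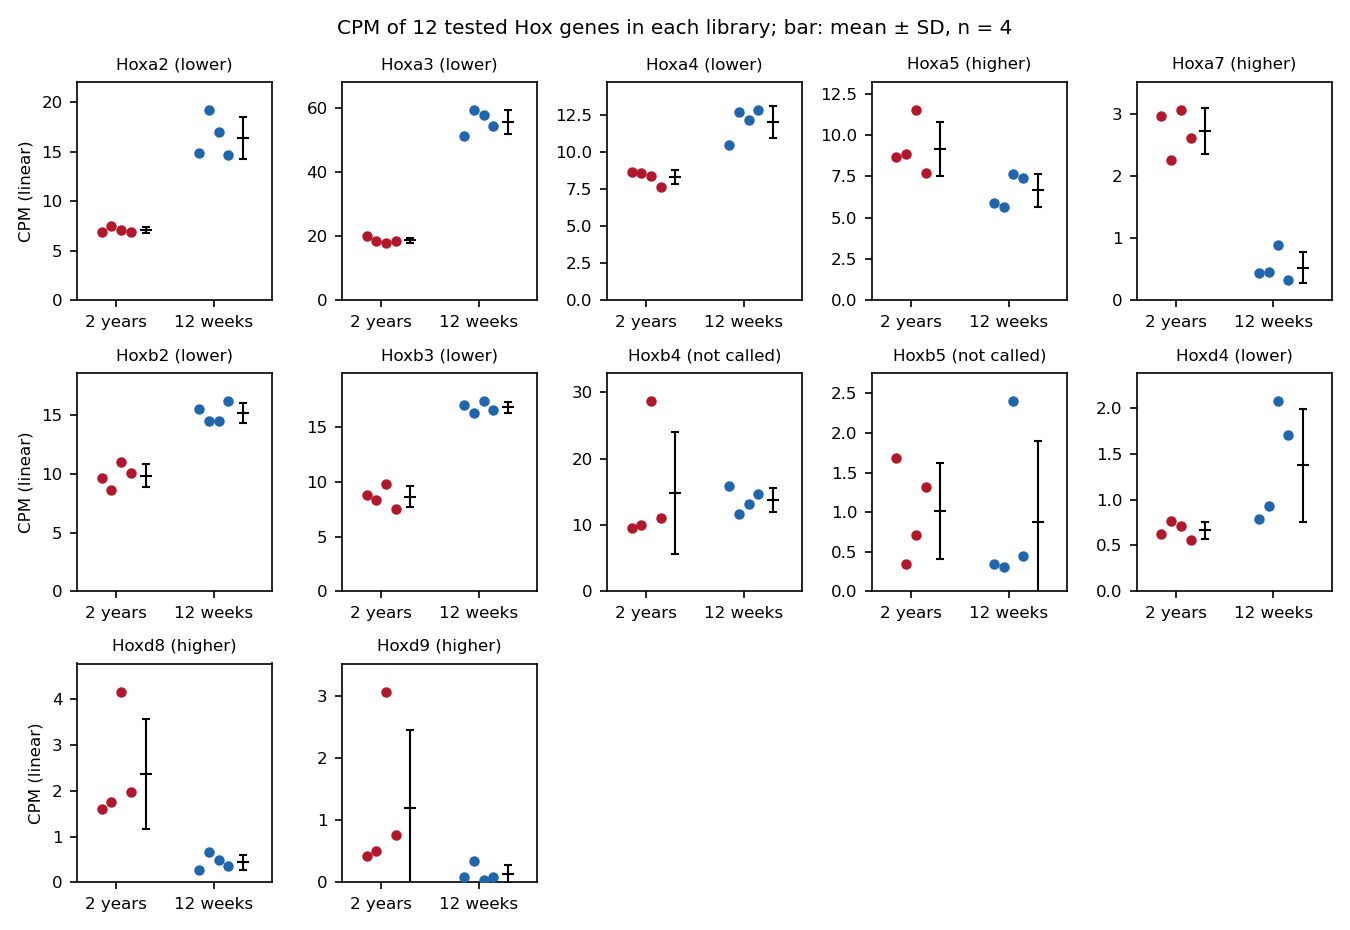
CPM (linear axis from 0) of 12 of the 13 tested Hox genes in each library, 2 years on the left and 12 weeks on the right of each panel; bars give the mean ± SD (n = 4), and those that would run below 0 are clipped at the axis. The 2-year libraries lie below the 12-week libraries for Hoxa3 and above them for Hoxa7, and 2-year replicate 3 stands apart for Hoxb4, Hoxd8 and Hoxd9.

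Among paralogs 1 to 3, every gene tested (5 of 5) was called lower at 2 years. With the replicate block, and without any 1 of 6 of the 8 libraries, 4 of the 5 were called. Hoxa3, which patterns the third pharyngeal arch and with it the thymus, the parathyroids and the carotid arteries, was at 19.97, 18.6, 17.9 and 18.5 CPM in 2-year replicates 1 to 4, against 51.3, 59.5, 58.0 and 54.3 CPM in 12-week replicates 1 to 4. The 4 libraries of each age lay close together and far from the other age. Hoxa3 averaged 18.8 ± 0.860 CPM at 2 years and 55.8 ± 3.69 CPM at 12 weeks (SD, n = 4 each), 2.97-fold lower (log2 fold change -1.57, SE 0.11, edgeR adjusted p = 1.94e-06). Hoxa2, which sets the identity of the second pharyngeal arch, was at 6.93, 7.55, 7.15 and 6.87 CPM in the 2-year libraries, against 14.8, 19.2, 17.0 and 14.7 CPM in the 12-week libraries. Every 2-year value lay far under the lowest 12-week value, and the gene was 2.31-fold lower (log2 fold change -1.21, SE 0.14, edgeR adjusted p = 5e-05).

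The Hoxb paralogs of the same numbers moved the same way by less. Hoxb3, which acts with Hoxa3 in the pharyngeal arches, had 8.84, 8.32, 9.82 and 7.53 CPM in the 2-year libraries, against 17.0, 16.2, 17.4 and 16.6 CPM in the 12-week libraries (log2 fold change -0.96, SE 0.13, edgeR adjusted p = 0.000142). Hoxb2, a gene of the hindbrain and its facial motor neurons, had 9.61, 8.61, 11.0 and 10.1 CPM in the 2-year libraries, against 15.5, 14.5, 14.5 and 16.2 CPM in the 12-week libraries (log2 fold change -0.63, SE 0.13, edgeR adjusted p = 0.00213). Both sets of libraries were tight for both genes. Hoxd3, the third paralog of its number, was not tested: it had 2, 5, 0 and 5 counts in the 2-year libraries, against 9, 6, 26 and 9 counts in the 12-week libraries. Its summed counts were 12 at 2 years and 50 at 12 weeks, a ratio of 0.235 (95% exact interval 0.114 to 0.448, counting error only), and 26 of the 50 lay in 12-week replicate 3. Hoxd1 had 1 count at 2 years and 0 at 12 weeks, and Hoxb1 had 0 in all libraries.

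Paralogs 4 and 5 did not share a direction. Hoxa4, a gene of the neck and upper trunk, had 8.67, 8.57, 8.39 and 7.64 CPM in the 2-year libraries, against 10.4, 12.7, 12.1 and 12.8 CPM in the 12-week libraries (log2 fold change -0.53, SE 0.13, edgeR adjusted p = 0.00657). Hoxd4, its paralog, was low throughout, at 0.628, 0.768, 0.715 and 0.556 CPM in the 2-year libraries, against 0.786, 0.924, 2.07 and 1.70 CPM in the 12-week libraries. The groups came close for Hoxd4, and its call (log2 fold change -1.05, SE 0.39, edgeR adjusted p = 0.0400) was lost when 12-week replicate 3 or 12-week replicate 4, its highest libraries, or any single 2-year library was left out. Hoxb4, known for expanding blood stem cells when forced, had 9.56, 10.1, 28.7 and 11.0 CPM in the 2-year libraries, against 15.8, 11.6, 13.1 and 14.7 CPM in the 12-week libraries. Replicate 3 at 2 years was far above the other 7 libraries, which otherwise lay lower at 2 years. With all libraries the log2 fold change of Hoxb4 was 0.09 (SE 0.33, edgeR adjusted p = 0.836), and without 2-year replicate 3 it was -0.44 (adjusted p = 0.0293).

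Hoxa5, which patterns the lung and the neck-to-thorax transition, had 8.67, 8.83, 11.5 and 7.67 CPM in the 2-year libraries, against 5.90, 5.66, 7.62 and 7.42 CPM in the 12-week libraries. The lowest 2-year library was barely above the highest 12-week library. Its log2 fold change was 0.46 (SE 0.18, edgeR adjusted p = 0.0493), and 0.04 with the length and GC offset (adjusted p = 0.874). Leaving out any single library other than 2-year replicate 4 ended the call. Hoxb5, its paralog, had 1.68, 0.341, 0.715 and 1.32 CPM in the 2-year libraries, against 0.349, 0.308, 2.40 and 0.446 CPM in the 12-week libraries. The highest value of Hoxb5 was in 12-week replicate 3, the 12-week library with the most heart muscle and fat markers. The log2 fold change of Hoxb5 was 0.23 (SE 0.70, edgeR adjusted p = 0.801), and without 12-week replicate 3 it was 1.48 (adjusted p = 0.0551).

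Hoxa7, Hoxd8 and Hoxd9, the genes of paralogs 7 to 9 that were tested, were higher at 2 years. None was over the filter's limit in all 12-week libraries, so the filter favoured genes high at 2 years. Hoxa9 and Hoxb8, with similar counts at both ages, did not pass it. Hoxa7, a gene of the thoracic axial skeleton, had 2.97, 2.26, 3.06 and 2.60 CPM in the 2-year libraries, against 0.437, 0.462, 0.888 and 0.324 CPM in the 12-week libraries. No library came near the other age. It averaged 2.72 ± 0.365 CPM at 2 years and 0.528 ± 0.247 CPM at 12 weeks (SD, n = 4 each), 5.08-fold higher (log2 fold change 2.35, SE 0.35, edgeR adjusted p = 0.00027). Hoxd8, a gene of the trunk, had 1.598, 1.75, 4.16 and 1.98 CPM in the 2-year libraries, against 0.262, 0.655, 0.481 and 0.365 CPM in the 12-week libraries (log2 fold change 2.39, SE 0.43, edgeR adjusted p = 0.000891). Again 2-year replicate 3 was the highest, and without it the log2 fold change of Hoxd8 was 1.99 (adjusted p = 0.00123).

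Hoxd9, a gene of the lumbosacral region and the limbs, had 0.428, 0.512, 3.06 and 0.764 CPM in the 2-year libraries, against 0.0873, 0.347, 0.0370 and 0.0811 CPM in the 12-week libraries. The counts behind these were 15, 12, 47 and 22 at 2 years and 2, 9, 1 and 2 at 12 weeks. It passed the filter only through the 2-year libraries, so it had to differ to be tested at all. Its log2 fold change was 2.98 (SE 0.82, edgeR adjusted p = 0.0100), and 1.99 without 2-year replicate 3, 3.98 without 12-week replicate 2 and 1.67 without both libraries numbered 3 (adjusted p = 0.0485). Hoxa7 and Hoxd8 were over the filter's limit in all 4 libraries at 2 years and in 3 and 2 libraries at 12 weeks. Hoxa7 and Hoxd8 therefore also passed the filter with help from the 2-year libraries.

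**Figure D2:**
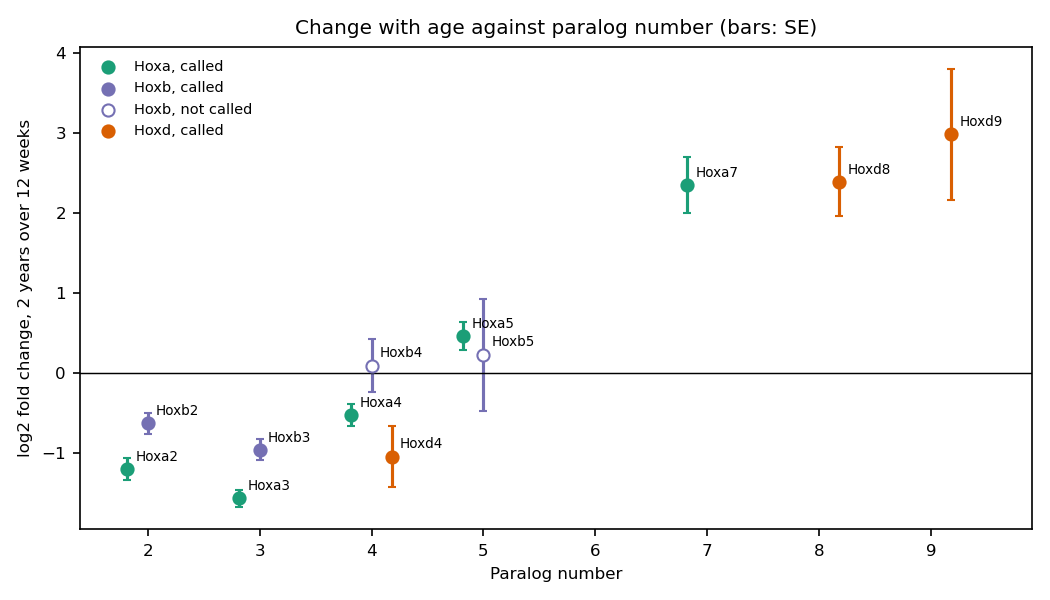
Log2 fold change, 2 years over 12 weeks, against paralog number for 12 of the 13 tested Hox genes, with SE bars; filled points were called at an edgeR adjusted p below 0.05 and open points were not. The genes drawn at numbers 2 and 3 lie between -1.57 and -0.63, those numbered 4 and 5 on both sides of 0, and Hoxa7, Hoxd8 and Hoxd9 at 2.35 and above.

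Across the 13 genes, the log2 fold change ranked with paralog number (Spearman's rho 0.80, and 0.79 with the length and GC offset). Without Hoxd9, which passed the filter only through the 2-year libraries, rho over 12 genes was 0.74 in both. Those 12 genes still include Hoxa7 and Hoxd8, which passed the filter with help from the 2-year libraries. High-numbered genes with similar counts at both ages, such as Hoxa9, Hoxa10 and Hoxb8, did not pass the filter and are not among them. Both values of rho therefore rest in part on genes that the filter kept because they were high at 2 years. This is a description over genes, which share the same 8 libraries and are not independent replicates. The plot of change against paralog number shows no such order among the lowest numbers drawn, where Hoxa3 fell furthest.

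The 26 untested members held few reads. Of these, 16 had at least 1 count and 10 had 0 counts in all libraries: Hoxa11, Hoxa13, Hoxb1, Hoxc8, Hoxc9, Hoxc11, Hoxc12, Hoxd11, Hoxd12 and Hoxd13. A count of 0 allows up to 3 counts over a group, 0.0298 CPM at 2 years and 0.0295 CPM at 12 weeks. Hoxb7, the paralog of Hoxa7, had 30, 6, 8 and 7 counts in the 2-year libraries, against 0, 0, 7 and 1 counts in the 12-week libraries. Its sums of 51 at 2 years and 8 at 12 weeks gave a ratio of 6.24 (95% exact interval 2.94 to 15.2), and without the low-count filter it was called higher (log2 fold change 2.53, edgeR adjusted p = 0.0420), in a fit that called 42.2% of its genes in either direction. Hoxd10, which patterns the hindlimb and its nerves, had 9, 0, 5 and 4 counts in the 2-year libraries, against 0, 3, 0 and 0 counts in the 12-week libraries. The counts of Hoxd10 gave a ratio of 5.88 (95% exact interval 1.72 to 31.1), and without the filter the edgeR adjusted p was 0.124. Hoxb6 varied more within the ages than between them, with 21, 4, 0 and 22 counts in the 2-year libraries, against 1, 1, 28 and 4 counts in the 12-week libraries. The remaining untested genes with reads had 20 counts or fewer in either group. Hoxc4 was the most abundant Hoxc gene, with 20 counts at 2 years and 15 at 12 weeks, followed by Hoxc5 with 11 and 5. Hoxa9 had 11 counts at 2 years and 10 at 12 weeks, Hoxa10 had 8 and 9, and Hoxb8 had 6 and 5. Hoxc6, Hoxa6 and Hoxb9 had 5, 2 and 2 counts at 2 years and 3, 4 and 0 at 12 weeks, and Hoxb13, Hoxc10 and Hoxc13 had 1 count each, all at 2 years. Most genes numbered 10 and above were not detectable at this depth.

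**Figure D3:**
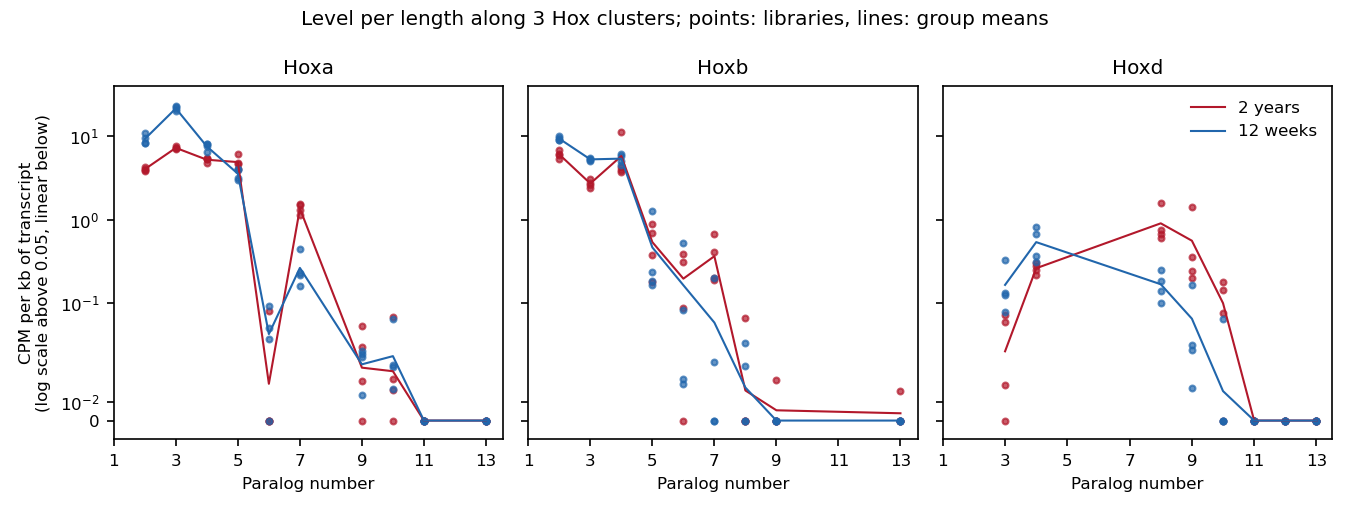
Level per length (CPM per kb of the longest coding transcript; log scale above 0.05 and linear below) along the Hoxa, Hoxb and Hoxd clusters from paralog 2 on, with a point for each library and a line for each group mean; the Hoxc cluster, with 38 and 23 counts at 2 years and 12 weeks, is not drawn. The 2-year line lies under the 12-week line at paralogs 2 to 4 of Hoxa and above it at paralogs 5 and 7, and the lines of Hoxd cross between paralogs 4 and 8.

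Per length of transcript, Hoxa3 had the highest level of all Hox genes at both ages, 7.24 CPM per kb at 2 years and 21.5 at 12 weeks. At 2 years Hoxb2 (6.03 CPM per kb), Hoxb4 (5.78), Hoxa4 (5.22), Hoxa5 (4.89) and Hoxa2 (4.02) followed within a narrow range. At 12 weeks Hoxb2 (9.32 CPM per kb), Hoxa2 (9.26), Hoxa4 (7.54), Hoxb4 (5.38) and Hoxb3 (5.27) followed, far under Hoxa3. Hoxa2 had rank 6 at 2 years and rank 3 at 12 weeks, and Hoxa5 had rank 5 at 2 years and rank 7 at 12 weeks. These ranks use the longest coding transcript of each gene. With the shortest, Hoxa3 kept rank 1 at both ages and Hoxb3 had rank 2 at both, against rank 7 at 2 years and rank 6 at 12 weeks with the longest, and Hoxa2 had rank 9 at 2 years and rank 4 at 12 weeks.

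The sum over a class of paralogs showed the same contrast in absolute level. Paralogs 1 to 3 summed to 48.3 ± 1.80 CPM at 2 years and 110.1 ± 5.31 CPM at 12 weeks (SD, n = 4 each), with no overlap between ages. Paralogs 9 to 13 summed to 1.57 ± 1.23 CPM at 2 years and 0.354 ± 0.216 CPM at 12 weeks, and most of the 2-year sum was Hoxd9. Here the ages almost touched, with 0.682 CPM in 2-year replicate 2 and 0.655 CPM in 12-week replicate 2. The log2 ratio of 2.15 for paralogs 9 to 13 was 1.45 without 2-year replicate 3. Paralogs 4 to 8 overlapped, at 40.4 ± 11.9 CPM at 2 years and 36.4 ± 3.48 CPM at 12 weeks, and the log2 ratio of 0.15 became -0.08 without 2-year replicate 3. All Hox genes together summed to 85.8, 80.9, 112.0 and 82.1 CPM in the 2-year libraries, against 139.1, 148.7, 154.4 and 145.1 CPM in the 12-week libraries. These sums are over chosen genes and carry no test.

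By cluster, Hoxa lay lower at 2 years, with 51.1, 49.6, 52.5 and 47.1 CPM in the 2-year libraries, against 88.4, 103.4, 101.8 and 94.4 CPM in the 12-week libraries. The Hoxb sums overlapped, at 31.4, 27.8, 50.7 and 31.0 CPM at 2 years and 48.7, 42.8, 48.8 and 48.1 CPM at 12 weeks. Only 2-year replicate 3, with its high Hoxb4, reached the 12-week range. Hoxd summed to 2.97, 3.24, 8.32 and 3.61 CPM in the 2-year libraries, against 1.53, 2.27, 3.55 and 2.51 CPM in the 12-week libraries, and Hoxc stayed at or under 0.455 CPM in every library. No Hoxc gene was tested.

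Within the Hoxa cluster the balance between genes differed with age. Hoxa3 made up 37.5 ± 2.37% of Hoxa counts at 2 years and 57.5 ± 0.393% at 12 weeks (SD, n = 4 each). Hoxa5 made up 18.2 ± 2.53% at 2 years and 6.87 ± 1.06% at 12 weeks, and Hoxa7 5.43 ± 0.596% at 2 years and 0.539 ± 0.231% at 12 weeks. None of these shares overlapped between ages. In the Hoxd cluster, Hoxd8 and Hoxd9 together made up 68.3 to 86.7% of counts at 2 years and 14.6 to 44.1% at 12 weeks, while Hoxd3 and Hoxd4 together made up 8.59 to 30.3% at 2 years and 50.8 to 85.4% at 12 weeks. Shares of a cluster compare genes within a library, so scaling between libraries does not enter them. The trend with length and GC can enter them, and the shares were not adjusted for it. The offset moved the log2 fold change of Hoxa5 from 0.46 to 0.04 and that of Hoxa3 from -1.57 to -1.71. The shares also depend on each other, since a lower share of Hoxa3 raises those of the other genes.

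**Figure D4:**
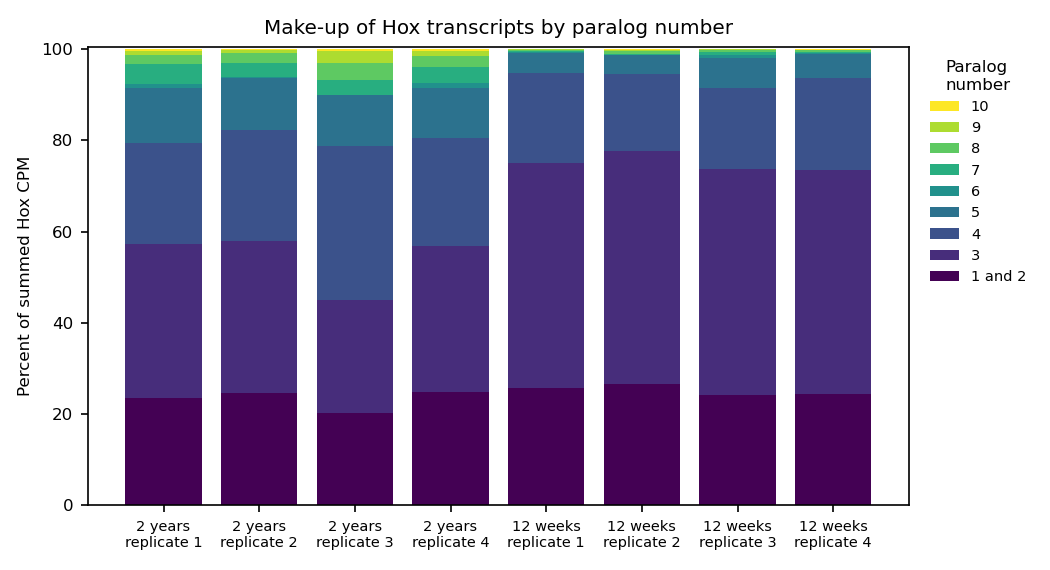
Percent of summed Hox CPM taken by paralogs 1 and 2 together and by each paralog number from 3 to 10 in each library, 2-year libraries on the left and 12-week libraries on the right; paralogs 11 and 12 had 0 counts and paralog 13, under 0.05% in every library, is not drawn. Paralogs 1 to 3 take 45.01 to 58.0% of each 2-year bar and 73.5 to 77.6% of each 12-week bar.

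Of all Hox CPM, paralogs 1 to 3 took 54.3 ± 6.19% at 2 years and 75.0 ± 1.88% at 12 weeks (SD, n = 4 each). Paralogs 4 to 8 took 44.1 ± 5.25% at 2 years and 24.8 ± 1.99% at 12 weeks, and paralogs 9 to 13 took 1.63 ± 0.964% at 2 years and 0.240 ± 0.144% at 12 weeks. All 3 shares were without overlap between ages. They depend on each other, since a lower share of paralogs 1 to 3 raises the others. The summed CPM of paralogs 4 to 8 overlapped between ages (log2 ratio 0.15). In 2-year replicate 3 paralogs 1 to 3 had their lowest share, 45.01%, and in the other 2-year libraries 56.8 to 58.0%.

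Markers of cell types were counted beside these genes. Over all genes tested, 25.8% were called higher and 26.2% lower, and with the offset 23.0% and 27.7%. Of 7 smooth muscle markers, 5 were called lower and 0 higher, and with the offset 6 lower and 0 higher. All 6 macrophage markers were called higher, with sums of 1537 to 1986 CPM at 2 years and 386 to 524 CPM at 12 weeks, and so were all 7 lymphocyte markers, with sums of 245 to 1209 CPM at 2 years and 3.61 to 6.11 CPM at 12 weeks. Of 6 fibroblast markers, 1 was called higher and 1 lower. Of 6 endothelial markers 1 was called lower, and with the offset 1 higher and 1 lower. None of these markers was at 0 in all libraries. Their part in the Hox differences, and that of the segment of aorta sampled, was not tested.

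Of the 9 cofactors that bind DNA with Hox proteins, all tested, 0 were called higher and 3 lower, with and without the offset, beside 25.8% higher and 26.2% lower over all genes tested. Their median log2 fold change was -0.30. Meis1, whose loss in mice disturbs the outflow vessels of the heart, had 23.0, 17.997, 32.0 and 21.2 CPM in the 2-year libraries, against 56.7, 70.0, 56.8 and 61.7 CPM in the 12-week libraries (log2 fold change -1.38, SE 0.17, edgeR adjusted p = 7.98e-05, and -0.89 with the length and GC offset). The groups lay far apart for Meis1. Meis2, a neural crest gene, had 48.0, 45.5, 59.1 and 44.6 CPM in the 2-year libraries, against 62.0, 73.9, 64.9 and 69.9 CPM in the 12-week libraries (log2 fold change -0.46, edgeR adjusted p = 0.0111). Meis3 was not called (log2 fold change -0.30) but was with the offset (-0.48, edgeR adjusted p = 0.00239), while Pbx2, Pbx3, Pbx4, Pknox1 and Pknox2 had log2 fold changes of -0.32 to 0.24 and were not called.

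Among 30 Polycomb genes, 3 were called higher and 11 lower, with a median log2 fold change of -0.32, beside 26.2% of all genes tested called lower. With the offset 4 were called higher and 9 lower, beside 27.7% of all genes lower. Jarid2, which recruits the Polycomb complex that methylates histone H3, averaged 11.2 ± 2.50 CPM at 2 years and 26.4 ± 2.42 CPM at 12 weeks (log2 fold change -1.24, edgeR adjusted p = 0.000139, n = 4 each). Pcgf6 had a log2 fold change of -0.73, whereas Phc3 (-0.85) and Asxl1 (-0.69) were called only without the offset, at -0.06 and -0.23 with it. Among 25 trithorax genes and other activators of Hox genes, 1 was called higher and 15 lower, with a median of -0.64. With the offset 0 were called higher and 12 lower, beside 23.0% and 27.7% of all genes. The histone methyltransferases Dot1l, Kmt2b, Setd1a and Setd1b had log2 fold changes of -2.35, -1.80, -1.32 and -1.09, and with the offset -1.76, -0.98, -0.78 and -0.24, all called.

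Of 16 tested genes of retinoic acid metabolism and signalling, out of 19 listed, 6 were called higher and 2 lower, and with the offset 8 higher and 3 lower. Over all genes tested, 25.8% were higher and 26.2% lower, and with the offset 23.0% and 27.7%. Aldh1a1, an enzyme that makes retinoic acid, averaged 125 ± 21.8 CPM at 2 years and 54.3 ± 12.8 CPM at 12 weeks (log2 fold change 1.21, edgeR adjusted p = 0.000293, n = 4 each). The binding protein Crabp2 was called higher, with a log2 fold change of 2.94, from 122 counts at 2 years and 17 at 12 weeks. Crabp2 passed the filter only through the 2-year libraries, so it had to differ to be tested at all. The receptor Rarb, itself induced by retinoic acid, was lower, at 9.54 ± 1.37 CPM at 2 years and 19.95 ± 4.07 CPM at 12 weeks (log2 fold change -1.06, edgeR adjusted p = 0.000453, n = 4 each).

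Genes that flank the clusters did not all follow their neighbours. Of 9 tested, 4 were called higher and 2 lower, beside 25.8% and 26.2% of all genes, and with the offset 3 higher and 2 lower, beside 23.0% and 27.7%. Beside the Hoxa cluster, Skap2 and Snx10 were higher, with log2 fold changes of 0.47 and 0.85, while Hoxa2, Hoxa3 and Hoxa4, at their end of the cluster, were lower. Skap1, a T cell adaptor gene beside the Hoxb cluster, had a log2 fold change of 2.72. Lymphocyte markers were higher in the same libraries, and their part in the Skap1 value was not tested. Cbx5, beside the Hoxc cluster, had a log2 fold change of -0.45, and 0.15 with the offset. Of 16 listed noncoding RNAs of the clusters, none was found by symbol in the tables, and they were not analysed here.

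**Figure D5:**
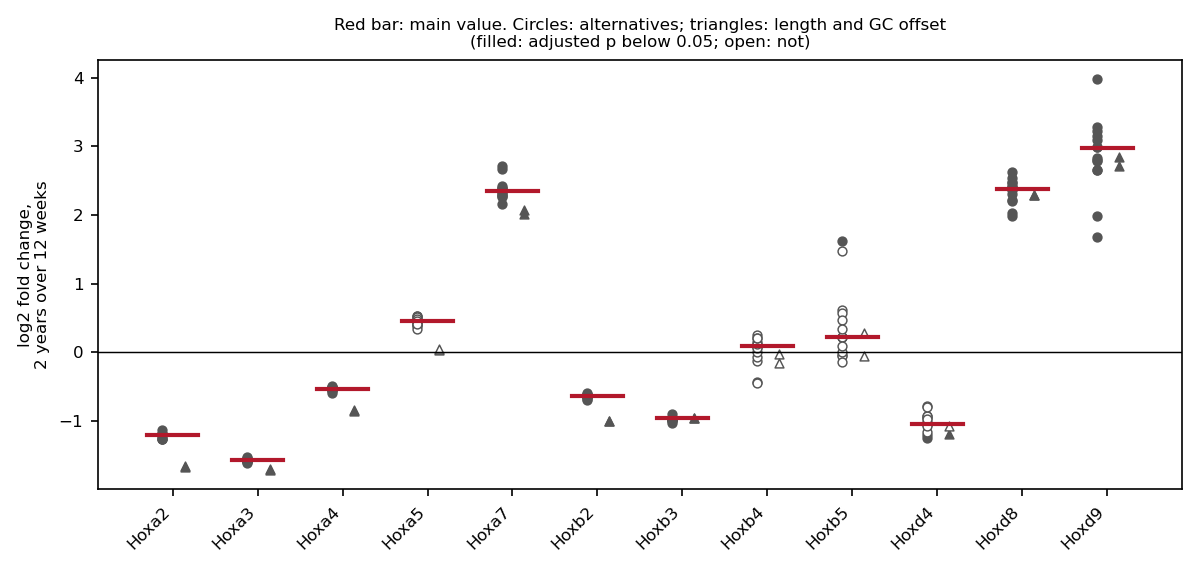
Log2 fold change, 2 years over 12 weeks, of 12 of the 13 tested Hox genes in the main result (red bar) and under 16 alternatives, of which triangles include the length and GC offset; filled symbols have an adjusted p below 0.05. The offset moved Hoxa2 to -1.67 and Hoxa5 to 0.04, and every symbol of Hoxa2, Hoxa3, Hoxa4, Hoxa7, Hoxb2, Hoxb3, Hoxd8 and Hoxd9 is filled.

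With the length and GC offset, 3 Hox genes were called higher and 7 lower, while over all genes tested 23.0% were called higher and 27.7% lower. The lower genes stayed lower or moved further down under it: Hoxa4 was at -0.85, Hoxb2 at -0.997 and Hoxa3 at -1.71. The plot of alternatives shows that the offset moved most of the tested Hox genes downwards, while Hoxb3 was at -0.96 without it and -0.95 with it.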

How the data were processed

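RNA from the aorta of 8 male Fbn1C1041G/+ mice was sequenced as whole transcriptomes, per the labels' protocols. The authors deposited raw counts per gene symbol, 1 table for each library, with no identifiers beside the symbols. The submitters' processing notes name the build GRCm39. No source used here gives the aligner, counting tool, annotation, strand or read length. Groups and replicate numbers come from the labels, and each library is taken as 1 mouse, so p-values measure the spread between these libraries.

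Counts were tested with edgeR 4.0.16 (R 4.3.3), as a quasi-likelihood F test with robust dispersions, TMM scaling, the default low-count filter and age as the only term. The Benjamini-Hochberg adjustment ran over the 13978 genes that passed, and the fit was tested on simulated data. Log2 fold changes are 2 years over 12 weeks. Totals were 33880690, 22213413, 16251986 and 28460128 counts in 2-year replicates 1 to 4, and 23622803, 27417541, 26271758 and 24448238 in 12-week replicates 1 to 4. Libraries of 1 group differed by 22.5 to 150.4 times counting noise (chi-square per degree of freedom), so none was a copy of another. The filter's limit was about 0.394 CPM in at least 4 libraries. Floors of 3 counts and exact intervals cover counting error only.

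Alternatives were DESeq2 size factors in edgeR, no low-count filter, DESeq2 1.42.0, limma voom 3.58.1, the replicate number as a block, a length and GC offset (natural splines with 4 degrees of freedom for each), that offset with the block, each library left out in turn, and both libraries numbered 3 left out. Lengths came by symbol from GENCODE M21 on GRCm38, the longest coding transcript of each gene, and 99% of tested genes had one. Promoters came by symbol from a RefSeq table of GRCm38.p6, in which 22 Hox symbols had an entry. Builds were not converted.

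By rule, every Hox gene and every cofactor is given, Fbn1, and from each other list up to 4 called genes with the smallest p, or up to 2 with the highest mean where none was called. Some genes that the rule takes are counted but not reported here. The members and the 24 lists were chosen with earlier results of these data known, so they carry no test of their own.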

Additional observations from a re-analysis of the deposited data

Results flagged for a closer look

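A library far from the other 3 of its group was looked for in 76 groups of 4 by Dixon's test of the gap to the nearest library at its 95% limit, and 15 were found. That limit marks about 1 in 20 groups of independent, normally spread values. Some groups here held few counts with ties, and the sums contain genes looked at singly, so that rate does not apply.

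Of the 15, 7 lay in 2-year replicate 3, the shallowest library, with the highest mitochondrial share and the most mesothelium, fat and fibroblast marker RNA at that age. It was the highest 2-year library for Hoxb4 (28.7 CPM), Hoxd8 (4.16 CPM), Hoxd9 (3.06 CPM) and the cofactor Pbx3 (21.3 CPM). Its sums of Hoxb (50.7 CPM), Hoxd (8.32 CPM) and paralogs 4 to 8 (58.2 CPM) were also the highest, while its Hoxa sum of 52.5 CPM lay near the other 2-year libraries. The part of those markers in these values was not tested.

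In 12-week replicate 3, the library with the most heart muscle and fat marker RNA at that age, 3 neighbouring Hoxb genes were the highest of the 12-week libraries: Hoxb5 at 2.40 CPM, Hoxb6 at 1.04 CPM and Hoxb7 at 0.259 CPM. The part of those markers was not tested either.

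Hoxb8 had 0.171 CPM in 2-year replicate 1, the only 2-year library in which it was counted. Hoxd9 and Hoxd10 were highest at 12 weeks in replicate 2, at 0.347 and 0.116 CPM, and Hoxa9 was lowest at 12 weeks in replicate 1, at 0.0437 CPM, all from few counts. The Hoxb sum was lowest at 12 weeks in replicate 2, at 42.8 CPM.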

How the results depend on the processing

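Of 208 values of the 13 Hox genes under the 16 alternatives, 164 kept their direction and their side of the threshold. With the direction kept, 33 lost the call (among them those of Hoxa5 and Hoxd4) and 1 gained it (Hoxb5). The other 10 changed sign, all for Hoxb4 and Hoxb5. Among these, Hoxb4 without 2-year replicate 3 was also called, lower at 2 years (edgeR adjusted p = 0.0293). The log2 fold change of Hoxb4 was -0.13 with limma voom, -0.0631 with the replicate block, -0.0279 with the length and GC offset, -0.16 with the offset and the block, and -0.45 without both libraries numbered 3; leaving out 1 library gave -0.44 to 0.25. That of Hoxb5 was -0.0521 with the offset and 1.62 without both libraries numbered 3 (called), and leaving out 1 library gave -0.14 to 1.48. The log2 ratio of summed paralogs 4 to 8 ran from -0.0807 to 0.23 when 1 library was left out. Leaving out 1 library gave 3 to 4 Hox genes called higher and 5 to 7 lower, and 3096 to 3620 higher and 3201 to 3801 lower among all genes. The cause of the lost calls was not tested. Replicate numbers did not pair the libraries: same-numbered libraries correlated at -0.308, -0.116, 0.0511 and 0.0253, and 0 of 8 libraries correlated best with its own number. With the replicate block, 3 Hox genes were called higher and 5 lower, and 3112 and 3320 of all genes. Without the low-count filter, 4 Hox genes were called higher and 6 lower, with Hoxb7 called and Hoxa5 not, and 42.2% of all genes tested were called. The median log2 fold change of all genes stayed within 0.1 of 0 under every alternative. Depth limits the genes numbered 9 and above most, since Hoxd9 alone among them reached 10 counts in every 2-year library.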

Other observations

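Other transcription factors of vascular and regional patterning moved in both directions. Of 44 tested out of 57 listed, 3 were called higher and 8 lower, against 25.8% higher and 26.2% lower over all genes tested, and with the length and GC offset 4 were called higher and 5 lower. Meox1, a homeobox gene of the somites, averaged 17.7 ± 4.62 CPM at 2 years and 4.92 ± 1.06 CPM at 12 weeks (log2 fold change 1.84, edgeR adjusted p = 5.89e-05, n = 4 each). Pax1, a gene of the pharyngeal pouches and the sclerotome, averaged 4.03 ± 1.38 CPM at 2 years and 0.678 ± 0.466 CPM at 12 weeks (log2 fold change 2.54, edgeR adjusted p = 0.000813, n = 4 each). Foxf1, a gene of lung and gut mesoderm, had a log2 fold change of -1.16, and Tfap2a, a neural crest gene, averaged 0.753 ± 0.295 CPM at 2 years and 2.73 ± 0.334 CPM at 12 weeks (log2 fold change -1.82, edgeR adjusted p = 0.000829, n = 4 each).

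Markers of tissue that can adhere to a dissected aorta were also counted. The shares called over all genes tested were 25.8% higher and 26.2% lower, and with the offset 23.0% and 27.7%. Of 8 tested heart muscle markers, 4 were called lower and 0 higher, and with the offset 3 lower and 0 higher. Myh6 and Tnni3, both among the called, were at 428 and 34.3 CPM in 12-week replicate 3. In the other 12-week libraries Myh6 was at 6.77 to 19.8 CPM and Tnni3 at 1.57 to 3.00 CPM. They kept their call under 3 and 6 of the 16 alternatives. Heart muscle markers summed to 95.3 to 182.8 CPM at 2 years and 228.9 to 1206 CPM at 12 weeks. Skeletal muscle markers summed to 2.78 to 39.9 CPM at 2 years and 3.93 to 259.8 CPM at 12 weeks, with 1 of 7 called lower. That gene, Myh1, kept its call under 5 of the 16 alternatives. Of 6 white fat markers 1 was called higher, but 0 with the offset, and of 5 brown fat markers 1 was called lower. Nerve markers had 2 of 6 called higher and 1 lower, and red blood cell markers 5 of 5 higher. Cartilage markers had 2 of 5 higher and 1 lower, and with the offset 2 higher and 0 lower. Of 4 gut epithelium markers 2 were called lower, and of 3 thymus markers 1 was called higher. The 1 lung and airway marker tested, Epcam, was called higher but passed the filter only through the 2-year libraries. Summed lung and airway markers overlapped, at 0.856 to 2.99 CPM at 2 years and 0.306 to 7.97 CPM at 12 weeks. The lung markers Sftpc, Sftpa1 and Cldn18 and the kidney markers Umod and Slc34a1 had 0 counts in all libraries. None of 4 mesothelium markers and not the 1 tested kidney and adrenal marker was called.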
